A study of Mus musculus with 4 samples.

Results

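Class 6 is 1 of 14 clusters that the authors deposited for single-nucleus ATAC-seq of the mouse mammary gland, and its open chromatin lay over genes of fibroblasts and the extracellular matrix. In this assay the Tn5 transposase inserts adapters into open chromatin, and barcodes assign each read to a nucleus. The members were all nuclei with the number 6 in the deposited cluster column, 213 of 7846 nuclei. Nuclei came from CD1 mice, an outbred stock, taken as fetuses at embryonic day 18 or as adults of 8 weeks, with 2 biological replicate libraries at each stage. Both stages are labelled as wild type, and in both the cells had been sorted as EpCAM-positive and lineage-negative, a gate aimed at epithelium. The labels do not say whether a library holds 1 animal or several, nor which litter, sex or day it came from. The spread between libraries may therefore be partly technical.

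Mammary stroma is the connective tissue around the ducts. Its fibroblasts secrete collagens and the enzymes that crosslink them, and they send growth factors such as Fgf10 to the epithelium. Epithelial cells are instead held together by Cdh1 (E-cadherin) and claudins, and repressors of the Zeb and Snai families, which bind E-box letters in DNA, are known for silencing such genes in mesenchymal cells. Blood vessels and immune cells also lie in the stroma, so markers of both were followed.

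Fetal replicates 1 and 2 gave 23 of 882 nuclei (2.61%) and 33 of 1695 nuclei (1.95%). Adult replicates 1 and 2 gave 82 of 2465 (3.33%) and 75 of 2804 (2.67%). The fetal mean was 2.28% ± 0.467 and the adult mean 3.00% ± 0.461 (SD, n = 2 libraries), and the difference did not pass the exact two-sided permutation test (p = 0.33, the smallest that 2 against 2 libraries can give). The class held 1496281 reads, or 144798, 350874, 422477 and 578132 in fetal replicates 1 and 2 and adult replicates 1 and 2, the order kept below. Its median of 5330 reads per nucleus lay close to the 5429 of all other nuclei. A median of 32.7% of reads fell in the deposited distal regions, against 42.0% in the other nuclei, the lowest of the 14 classes. No barcode was shared between libraries, and no doublet caller was run, since the authors' clusters were used unchanged. The reads that define a cluster also made it, so differences between class 6 and other nuclei are given as descriptions with no test.

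All 5 stromal markers had their highest level of the 14 classes in class 6, and 4 of the 5 were at least 2-fold higher than in all other nuclei pooled. Levels here are reads over a gene and 2000 bases on either side, scaled to 1000000 reads of the same nuclei (CPM), and log2 differences are of CPM + 2. A gene was called higher or lower at a log2 difference of at least 1 with the same sign in all 4 libraries. Ddr2, a receptor for fibrillar collagen (chr1:169972307-170110836, mm10), stood at 221, 202, 296 and 299 CPM in class 6 and at 16.7, 18.4, 17.8 and 19.9 CPM in the other nuclei. Thbs2, a secreted matrix glycoprotein (chr17:14665500-14694262), gave 138, 82.7, 128 and 150 CPM against 7.48, 10.3, 7.37 and 8.22. For both genes the lowest library of class 6 exceeded the highest of the other nuclei, with pooled log2 differences of 3.71 and 3.61. Col3a1, a fibrillar collagen (chr1:45311538-45349706), stood at 69.1, 125, 102 and 72.6 CPM against 6.63, 5.76, 5.39 and 7.96, a log2 difference of 3.47. Loxl1, which crosslinks elastin (chr9:58287723-58313212), was the most uneven, with 221, 68.4, 182 and 118 CPM against 26.7, 24.5, 11.8 and 8.81. Its pooled log2 difference was 2.91, and fetal replicate 2 had the smallest difference of the 4 libraries. Pdgfra, a receptor widely used to sort fibroblasts (chr5:75151322-75198206), stood at 82.9, 85.5, 66.3 and 96.9 CPM against 53.4, 57.3, 46.9 and 41.7. Its libraries did not overlap either, but the log2 difference of 0.76 is under the threshold, and class 12 came close with 76.2 CPM. Of the 5 markers, 4 were thus called higher. The list was chosen with earlier results of these data known, so these levels describe the class and do not test its label. The plot of marker levels by library shows the 5 genes beside genes of other cell types.

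**Figure D1:**
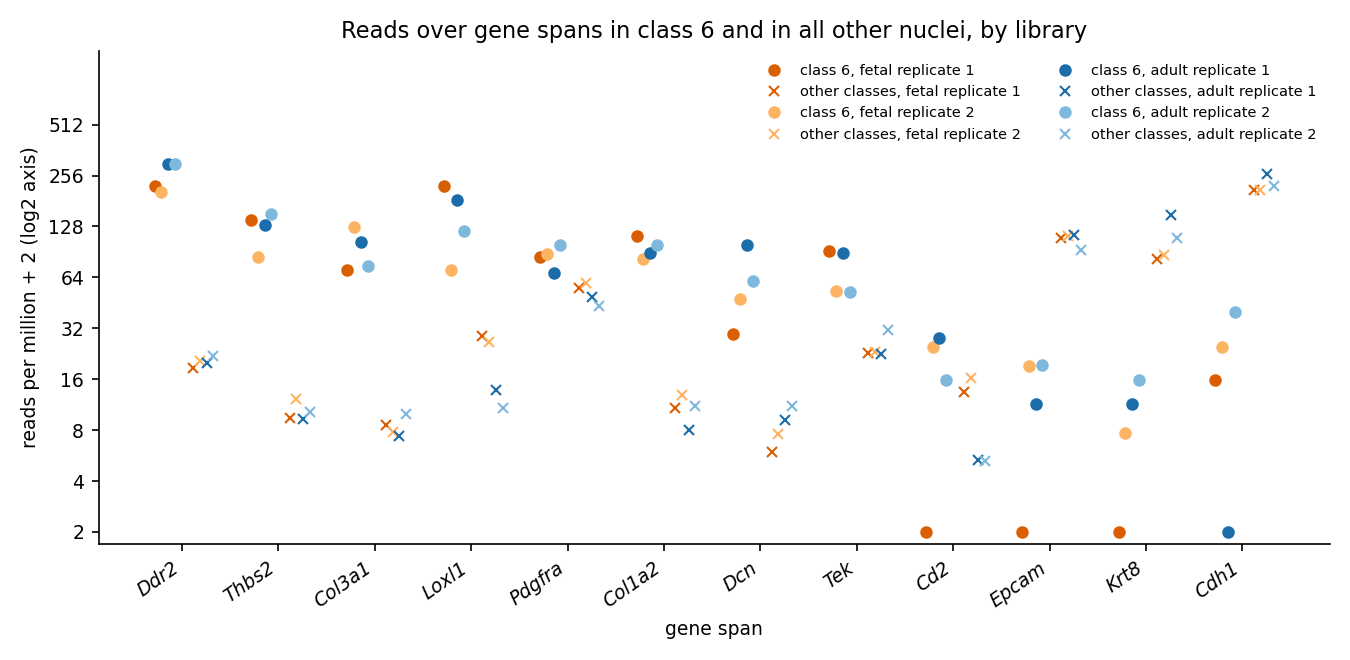
Reads over the gene span (CPM + 2, log2 axis, where 2 means no read) in class 6 and in all other nuclei, 1 point per library. Ddr2, Thbs2, Col3a1, Loxl1, Col1a2 and Dcn are higher in class 6 in each library, Pdgfra by less, and Epcam, Krt8 and Cdh1 are lower in each.

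Of 15683 genes that could be judged, with at least 10 reads expected in class 6, 569 were called higher in class 6 (3.63%) and 1251 lower (7.98%). Among the 18 fibroblast and matrix genes, 16 could be judged, and 14 of these were called higher and none lower. The median log2 difference of the 16 was 2.25, against -0.01 over all genes judged. Col1a2, a chain of type I collagen, stood at 110, 79.8, 87.6 and 96.9 CPM against 8.84, 10.9, 6.0 and 9.08, a log2 difference of 3.11. Decorin (Dcn), a small proteoglycan that binds collagen, gave 27.6, 45.6, 97.0 and 58.8 CPM against 3.91, 5.57, 7.22 and 9.18. The next in order were Dpt at a log2 difference of 2.69 and Col5a2 at 2.65. The lowest was Loxl2, another crosslinking enzyme, at 0.58 and not called. Mmp2, a gelatinase, had a log2 difference of 1.52 but was not called because fetal replicate 1 lay below the other nuclei (-0.17). The largest difference of any gene was that of Tnfaip6, a secreted protein that binds hyaluronan, at 249, 274, 118 and 121 CPM against 8.50, 9.13, 7.52 and 7.26. That is 21.0-fold (log2 4.09), higher in 4 of 4 libraries. The rest of the 10 largest were Ddr2, Thbs2, Col3a1, Col1a2, Loxl1, Dcn, the metalloprotease Adam12 (2.82), the transcription factor Ebf1 (2.77) and Dpt. The call closest above the threshold had a log2 difference of 1.0003 and the one closest below 0.9985.

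Epithelial genes showed the reverse, in a sort that selected for Epcam protein. Of 12 epithelial markers, 11 were called lower and none higher, with a median log2 difference of -2.83. Their summed level was 110, 134, 94.7 and 256 CPM in class 6 and 1068, 1005, 1371 and 1156 CPM in the other nuclei, so class 6 was lower in each library. Epcam itself, the adhesion protein of the gate, stood at 0, 17.1, 9.47 and 17.3 CPM against 107, 111, 112 and 90.8, from 20 reads in all. Cdh1 stood at 13.8, 22.8, 0 and 38.1 CPM against 208, 209, 260 and 219. The keratins Krt8 and Krt18 had log2 differences of -3.27 and -3.68, and the tight junction gene Cldn4 -3.75. Cldn7 was the exception at -1.89, because fetal replicate 1 lay above the other nuclei (0.13). The genes with the lowest values of all were Tspan1, Map3k21, Ehf, Adgrf4 and Cldn4. Ehf is an epithelial ETS-family transcription factor, and it gave 8 reads and a log2 difference of -3.77. Tspan1 and Adgrf4 had no read in class 6, against 26.1 and 25.3 CPM in the other nuclei. Basal genes were called lower for 4 of 8 (Krt5, Krt14, Trp63 and Cnn1), luminal progenitor genes for 3 of 5 and mature luminal genes for 1 of 6. The oestrogen receptor gene Esr1, a mature luminal marker, stood at 269, 217, 92.3 and 182 CPM against 81.4, 93.7, 152 and 168. Class 6 was thus above the other nuclei in both fetal libraries and below them in adult replicate 1, with a pooled log2 difference of 0.38.

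Promoters of genes at both ends of this order were examined for reads and motif letters. The 250 bases before the start of each gene are printed from RefSeq on GRCm38.p6, the assembly that mm10 names. They run 5′ to 3′ on the gene's strand, and capitals mark letters of 7 motifs searched on both strands. The motifs were NF-Y (CCAAT), GC box (GGGCGG), AP-1 (TGANTCA), E-box (CAGGTG), ETS (CCGGAAG), CRE (TGACGTCA) and C/EBP (TTGCNNAA). These 7 genes were chosen after their values were seen. The first 4 are called higher in class 6 and are at chr17:14694263-14694512 (minus strand), chr1:45311288-45311537, chr6:4505368-4505617 and chr2:52037863-52038112 (plus strand).
Thbs2 promoter: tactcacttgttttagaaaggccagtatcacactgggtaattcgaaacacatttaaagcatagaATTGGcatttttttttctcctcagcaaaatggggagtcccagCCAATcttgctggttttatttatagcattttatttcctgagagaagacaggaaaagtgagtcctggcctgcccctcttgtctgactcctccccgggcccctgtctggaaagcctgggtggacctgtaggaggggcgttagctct
Col3a1 promoter: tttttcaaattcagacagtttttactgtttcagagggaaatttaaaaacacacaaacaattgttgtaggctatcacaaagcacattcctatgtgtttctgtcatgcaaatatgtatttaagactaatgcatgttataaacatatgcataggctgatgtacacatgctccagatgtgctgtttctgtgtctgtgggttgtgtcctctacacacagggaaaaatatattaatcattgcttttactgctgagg
Col1a2 promoter: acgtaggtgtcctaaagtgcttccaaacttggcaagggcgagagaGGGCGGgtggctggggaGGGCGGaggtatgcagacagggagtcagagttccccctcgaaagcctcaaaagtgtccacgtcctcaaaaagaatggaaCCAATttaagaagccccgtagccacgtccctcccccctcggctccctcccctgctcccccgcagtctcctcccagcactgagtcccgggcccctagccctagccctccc
Tnfaip6 promoter: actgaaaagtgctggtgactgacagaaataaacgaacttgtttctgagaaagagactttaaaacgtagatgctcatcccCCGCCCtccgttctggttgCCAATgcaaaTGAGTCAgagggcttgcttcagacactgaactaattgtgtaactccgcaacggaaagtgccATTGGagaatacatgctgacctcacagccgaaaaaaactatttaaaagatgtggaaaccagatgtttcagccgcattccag

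Reads were counted in these bases and the 50 that follow. Most class 6 reads of these gene spans lay outside the windows. Inside were 34 of 190 at Thbs2, 16 of 139 at Col3a1, 23 of 137 at Col1a2 and 29 of 252 at Tnfaip6. The Thbs2 window held 3, 15, 15 and 1 class 6 reads, 22.7 CPM against 2.72 CPM in the other nuclei. At Col3a1 there were 1, 11, 0 and 4 reads, 10.7 CPM against 0.244 CPM, the latter from only 13 reads. The Col1a2 window held 2, 6, 6 and 9 reads (15.4 against 2.50 CPM), and that of Tnfaip6 2, 8, 9 and 10 (19.4 against 4.38 CPM). CCAAT in either orientation is marked at 2 places in Thbs2, at 1 in Col1a2 and in Tnfaip6 on both sides of the AP-1 letters, and none of the 7 motifs is in the Col3a1 window.

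The other 3 promoters belong to epithelial genes that are lower in class 6, at chr17:87635729-87635978, chr15:102027966-102028215 (plus strand) and chr5:134946935-134947184 (minus strand). Each holds E-box letters, which read CACCTG on the opposite strand.
Epcam promoter: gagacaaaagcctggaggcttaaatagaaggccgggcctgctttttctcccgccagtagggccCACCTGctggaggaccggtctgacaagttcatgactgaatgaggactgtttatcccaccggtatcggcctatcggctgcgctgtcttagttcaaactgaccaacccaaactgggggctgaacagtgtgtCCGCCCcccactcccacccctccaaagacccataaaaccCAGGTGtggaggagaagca
Krt18 promoter: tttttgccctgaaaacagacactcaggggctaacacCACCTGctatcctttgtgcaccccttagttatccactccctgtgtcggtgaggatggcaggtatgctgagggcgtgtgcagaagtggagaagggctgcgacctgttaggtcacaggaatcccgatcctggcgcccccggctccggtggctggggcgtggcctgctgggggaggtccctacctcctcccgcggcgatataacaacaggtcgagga
Cldn4 promoter: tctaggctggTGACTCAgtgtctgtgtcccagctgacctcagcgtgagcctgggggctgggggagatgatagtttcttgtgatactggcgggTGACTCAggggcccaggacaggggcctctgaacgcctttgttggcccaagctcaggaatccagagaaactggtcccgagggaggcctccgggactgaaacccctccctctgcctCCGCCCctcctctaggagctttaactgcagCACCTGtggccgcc

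None of the 3 windows held a class 6 read. The other nuclei had 285 reads at Epcam (5.35 CPM), 376 at Krt18 (7.06 CPM) and 1204 at Cldn4 (22.6 CPM). Over all 17492 RefSeq promoters of this length, E-box letters occur in 16.8%, CCAAT in 36.2%, the GC box in 44.4% and the AP-1 letters in 6.24%. The ETS letters occur in 9.59%, the CRE in 2.06% and the C/EBP letters in 8.99%. A comparison of these shares for all called genes is void, because only 72.2% of the genes called higher and 76.3% of those called lower had a promoter in the reference. A match is a run of letters and not evidence of a bound factor.

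Regulators of mesenchyme followed the matrix genes. Of 20 mesenchymal transcription factors, 19 could be judged and 10 were called higher and none lower, with a median log2 difference of 1.18. Ebf1, known from adipose and stromal progenitors, stood at 442, 502, 353 and 386 CPM against 64.3, 78.7, 34.3 and 56.5. Twist1, a regulator of mesenchyme, stood at 96.7, 68.4, 56.8 and 83.0 CPM against 14.6, 15.4, 10.1 and 10.5, and its relative Twist2 had a log2 difference of 2.31. Ebf2 reached 2.21. Class 6 was above the other nuclei in every library for these 4 genes. Gli1, a target of Hedgehog signalling, was lowest at -0.28 and was not called.

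Stromal ligands split both ways. Of 16, 5 were called higher and 3 lower. Wnt2 stood at 41.4, 62.7, 85.2 and 83.0 CPM against 12.7, 16.7, 7.75 and 10.2, and Fgf2 had a log2 difference of 1.84. The fibroblast growth factors Fgf7 (1.71) and Fgf10 (1.15), which signal to epithelium, and Igf1 (1.41) were also higher. Fgf10 was nearly equal in fetal replicate 1, at 13.8 against 13.4 CPM. Wnt5a (-1.14) and the platelet-derived growth factors Pdgfa (-1.15) and Pdgfb (-1.27), whose receptors are Pdgfra and Pdgfrb, were lower. Among 14 mesenchymal receptors, 3 were called higher and none lower, namely Ddr2, Pdgfrb (2.30) and Tek (1.37). Each of the 3 is also counted in another list, Ddr2 as a stromal, Pdgfrb as a fibroblast and Tek as an endothelial gene. The lowest of the 14 was Ddr1, the collagen receptor of epithelia, at -0.90.

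Markers of other cell types of the stroma were called higher less often than the fibroblast and matrix genes (87.5%). Of all genes judged, 3.63% were called higher and 7.98% lower. The shares called higher of the mural, endothelial and myeloid lists, 28.6%, 8.33% and 12.5%, were above that 3.63%, from 2, 1 and 1 genes. Those of the lymphatic and lymphoid lists were 0%. Mural markers were called higher for 2 of 7 (28.6%), Abcc9 (1.49) and Heyl (1.31), with Mcam lowest at -0.76. Their summed level of 401, 376, 222 and 294 CPM was above the 243, 249, 215 and 197 CPM of the other nuclei. The gap was smallest in adult replicate 1. Endothelial markers were called higher for 1 of 12, the angiopoietin receptor Tek, with Ptprb lowest at -0.46. Tek stood at 89.8, 51.3, 87.6 and 50.2 CPM against 20.9, 21.2, 20.6 and 29.1. The summed endothelial level ran from 373 to 527 CPM in the libraries of class 6 and from 362 to 408 CPM in those of the other nuclei, so the ranges overlapped. Of 3 lymphatic markers judged, none was higher and Reln was lower (-1.38), and their summed level of 71.3 to 124 CPM was below the 145 to 196 CPM of the other nuclei in every library. Myeloid markers were called higher for 1 of 8, Coro1a (1.04), with Lcp1 lowest at -1.14, and their summed level of 110 to 189 CPM overlapped the 132 to 178 CPM of the other nuclei.

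No lymphoid marker was called among the 8 judged, while the sum of all 13 had opposite signs at the stages, untested. It stood at 311 and 345 CPM in the fetal libraries of class 6 against 362 and 369, and at 421 and 348 CPM in the adult ones against 253 and 246. The lymphocyte genes Cd3e, Il7r and Cd2, picked from the 13 after their values were seen, gave 10, 8 and 11 reads in adult replicate 1. Their log2 differences there were 2.35, 2.37 and 2.39. Cd3e had no read in adult replicate 2 (-1.09) and was not among the 8 judged. Cd2 had none in fetal replicate 1, where the other nuclei stood at 11.4 CPM. Cd3g, another of the 13, had no read in either fetal library of class 6. Over the 8 judged the median log2 difference was 0.22, with 7 above 0. Of the adipocyte markers Pparg, the master regulator of fat cells, was called higher. It stood at 207, 182, 71.0 and 116 CPM against 30.1, 28.8, 31.7 and 25.7, while the other 3 judged were not called. No Schwann cell, melanocyte or skeletal muscle marker was called higher.

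**Figure D2:**
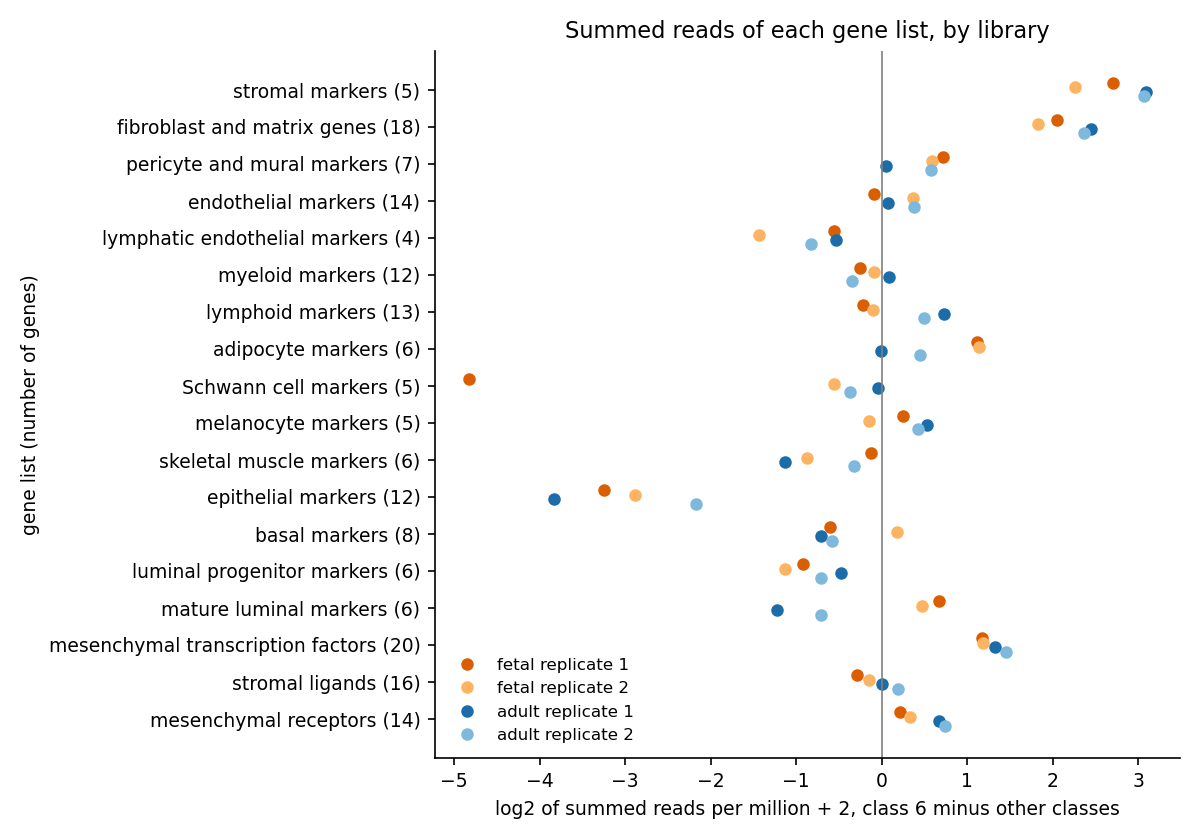
Log2 difference of the summed CPM of each of 18 gene lists, class 6 minus all other nuclei, 1 point per library. The stromal marker and fibroblast lists lie highest and the epithelial list lowest in the plot, while the endothelial and myeloid lists lie near 0 and the lymphoid list is above 0 in the adult libraries only.

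Distal regions were described in the same way. Of 145453 deposited regions, each 1000 bases wide, 4676 had at least 20 class 6 reads, and 843 of these (18%) were at least 4-fold higher (log2 of CPM + 1) and higher in every library. The minimum of reads favours regions open in class 6, so that share cannot be read against other classes. Gene spans held 427 of them, 160 in genes called higher themselves, and the gene with the most was Tns1, with 5 of its 40 regions. Of the 1866 genes whose span held any of the 4676 regions, 363 (19.5%) held 1 of the 843. Among the 23 stromal markers and fibroblast genes, 9 held any of the 4676 and 5 of these 1 of the 843, Loxl1, Mmp2, Col5a1, Fbn1 and Col6a3. The regions closest to the threshold had log2 differences of 2.0015 and 1.9979. The count of 843 moved to 541 without adult replicate 1, to 355 without adult replicate 2, and to 59 with the fetal libraries alone, which hold fewer reads.

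The 8 regions with the largest differences among those with at least 30 class 6 reads are given with their positions in mm10. The region chr13:101879118-101880117 lies between genes, 110901 bases from Pik3r1, a regulatory subunit of PI3-kinase. It had 2, 20, 23 and 14 class 6 reads, in 24 nuclei, and 0, 0, 3 and 2 reads in all other nuclei, so 92.2% of its reads came from class 6. Within Rbms3, chr9:116846928-116847927 had 7, 18, 21 and 17 reads against 0, 4, 4 and 9. Within Dnm3, chr1:162216982-162217981 had 2, 19, 22 and 23 against 0, 19, 2 and 0, so fetal replicate 2 held nearly all reads of the other nuclei there. Within Adam12, itself among the 10 largest genes, chr7:134114458-134115457 had 5, 26, 11 and 20 against 2, 11, 2 and 14. The fifth lay within Col4a1, a basement membrane collagen, at chr8:11249295-11250294, with 2, 16, 19 and 27 reads against 1, 14, 2 and 19. The other 3 lay between genes, at chr16:85703883-85704882 (51 reads against 11), chr11:90129478-90130477 (53 against 21) and chr6:141041627-141042626 (50 against 18). Their nearest genes were Adamts1, Tmem100 and Pde3a, at 88945, 92970 and 206643 bases. Class 6 thus held between 64.0% and 92.2% of the reads of each of the 8, and 18 to 31 of the 213 nuclei had a read there. Choice by the largest difference favours such shares, and over all 843 regions class 6 held 24.0% of the reads.

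The deposited Cicero table gives each pair of regions 1 co-accessibility score over all nuclei. The score says how strongly the pair opens together and is not a share of nuclei. The strongest partner of the 8 regions scored from 0.241 to 0.649 and was a promoter region in none, while in 3 it was another of the 843. The Col4a1 region had the strongest promoter partner, at 0.313, and no other exceeded 0.128.

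Motif scores gave a second readout of the same nuclei. A chromVAR deviation score says how far the accessibility of all regions with a motif departs from the average over nuclei, and 427 motifs were deposited, 388 with distinct values. Motifs of a family share letters and regions, so they are not separate measurements. In class 6, 36 motifs were higher by at least 1 with the same sign in all 4 libraries (8.43%) and 22 lower (5.15%). The lowest was Zeb1, the E-box repressor, at -4.13, -4.79, -3.69 and -4.08 against -0.11, -0.29, 0.32 and 0.22 in the other nuclei. The means of the other 13 classes ran only from -0.76 to 0.74, so class 6 lay alone on this motif. Tcf12, Id3 with Id4, and Tcf4 followed, with differences of -3.90, -3.74 and -3.67. Snai2, also an E-box repressor, had -3.66. Grhl1, whose family maintains epithelial junctions, gave -2.54, -2.40, -1.96 and -2.26 against 0.10, -0.01, 0.17 and -0.05. The basal factor Trp63 had a difference of -1.80, Nfix -1.54 and Sox9 -1.47. Nfix and Sox9 were not lowest in class 6. Class means of Nfix were -1.43 in class 6 and -1.49 in class 2. For Sox9 they were -1.24 in class 6, -1.47 in class 2 and -1.39 in class 11.

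The gene Zeb1 and its motif went opposite ways. Its gene span was called higher in class 6, as was that of Zeb2, with log2 differences of 1.41 and 1.58. The highest motifs were of the ETS family and of factors that bind near gene starts. Elk3 scored 1.36, 1.58, 1.54 and 1.51 against -0.24, -0.29, 0.08 and 0.01, a difference of 1.61. Elk1, Etv5, Pbx3, Nfya, Etv4, Elk4 and Etv1 followed, between 1.51 and 1.59. Cebpb, a factor of fat and stromal cells, had a difference of 1.39, and Jun of AP-1 1.12. Jun was not highest in class 6, with a class mean of 0.89 against 1.30 in class 11 and 1.09 in class 2. Fos, also of AP-1, had a class mean of 0.30, against 3.01 in class 11 and 2.72 in class 2. Of the 33 motifs of a chosen list that had a column, 5 were higher and 8 lower, with a median of 0.01 against 0.24 over all motifs. The Ebf1 motif was 0.49 above the other nuclei and highest in class 6 of all classes, with a class mean of 0.39 against 0.05 in the next, and Twist1 (-0.09), Twist2 (0.17) and Prrx1 (-0.19) stood near the other nuclei, in contrast to their genes.

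**Figure D3:**
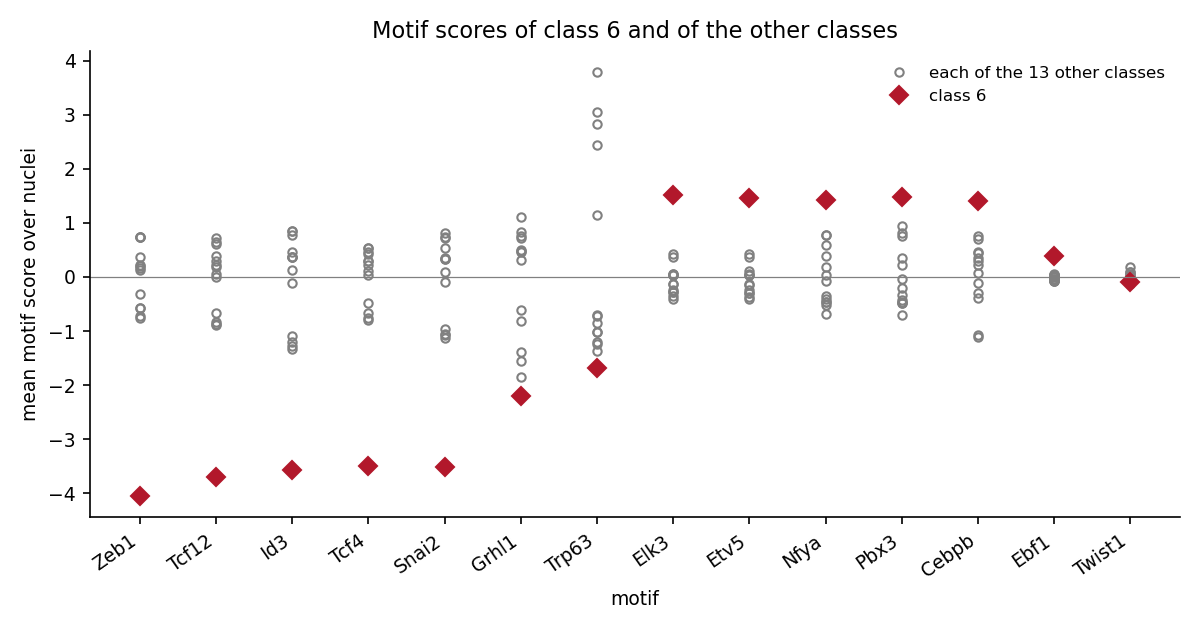
Mean chromVAR deviation score over nuclei of 14 motifs in class 6 and in each of the 13 other classes, with libraries pooled. The E-box motifs (Zeb1, Tcf12, Id3, Tcf4, Snai2) lie below -3 in class 6, and Elk3, Etv5, Nfya, Pbx3 and Cebpb lie above 1 there.

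Single nuclei were then examined for stromal, endothelial and immune signal. For each nucleus the share of its reads in the spans of a list was set against the 99th percentile of that share over all other nuclei, which 1.01% of the other nuclei pass by construction. The stromal list (23 stromal and fibroblast genes) passed in 125 of 213 nuclei (58.7%), or 12 of 23, 13 of 33, 54 of 82 and 46 of 75. No other class had more than 3.40% there. The median nucleus of class 6 had 13 reads in the stromal list, against 2 elsewhere, and none in the epithelial list, against 6. The epithelial threshold was passed by 0 of 213, which by a limit of 3 counts allows a share of up to 1.41%. The other nuclei, with their higher epithelial level, pass it in only 1.01%, so this count cannot limit epithelial signal in class 6. In the class 67.6% of nuclei had no epithelial read, against 11.5% of other nuclei.

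The endothelial threshold was passed by 0, 2, 3 and 3 nuclei and the immune one by 0, 0, 9 and 3. These were 3.76% and 5.63% of class 6, while the highest other classes reached 2.26% (class 1) and 2.63% (class 13). The 9 immune-high nuclei of adult replicate 1 were 11.0% of its 82 (exact 95% interval 5.14% to 19.8%, which like the limits here covers counting error only). For the fetal libraries, a limit of 3 counts lets 0 of 23 and 0 of 33 stand for up to 13.04% and 9.09% (exact 95% limits 14.8% and 10.6%). None of the 12 immune-high nuclei passed the stromal threshold, 10 of the 12 had no stromal read at all, and 2 of the 8 endothelial-high nuclei passed it. Without adult replicate 1, and with the threshold recomputed, 4 nuclei were immune-high, so that library holds most of them.

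Read totals set the groups of nuclei apart. The 123 nuclei past the stromal threshold alone had 3088 CPM in the stromal list, 429 in the endothelial, 388 in the immune and 142 in the epithelial list. The 12 past the immune threshold alone had 549 CPM stromal, 343 endothelial, 3154 immune and 754 epithelial, but 1 nucleus of adult replicate 2 with 14090 reads gave 27 of their 32 stromal and 38 of their 44 epithelial reads. The other 11 had 113 CPM stromal, 226 endothelial, 3503 immune and 136 epithelial, against 464 stromal and 1155 epithelial over all other classes. These 11 were thus low in both the stromal and the epithelial list. The 6 past the endothelial threshold alone had 467 CPM stromal, 3176 endothelial, 934 immune and 187 epithelial, and without the 1 with the most reads the immune level was 550 CPM and the stromal 687. Leaving out these nuclei was chosen after seeing the data. Each of these groups is high in the list that chose it by that choice. Passing that threshold alone also holds each nucleus under the thresholds of the other lists. No nucleus past the immune threshold was left out for passing another. The 2 past both the endothelial and the stromal threshold had 2481 CPM stromal and are not among the 6. The 70 nuclei that passed no threshold had 1335 CPM stromal and 149 CPM epithelial. The first lay below the stromal-high nuclei by that choice and above the 464 CPM of the other classes. The second was close to that of the stromal-high nuclei. Median reads per nucleus were 6351, 3775, 2460 and 4992 in these 4 groups, and shallow nuclei pass a threshold with fewer reads. The part of depth in these counts was not tested.

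**Figure D4:**
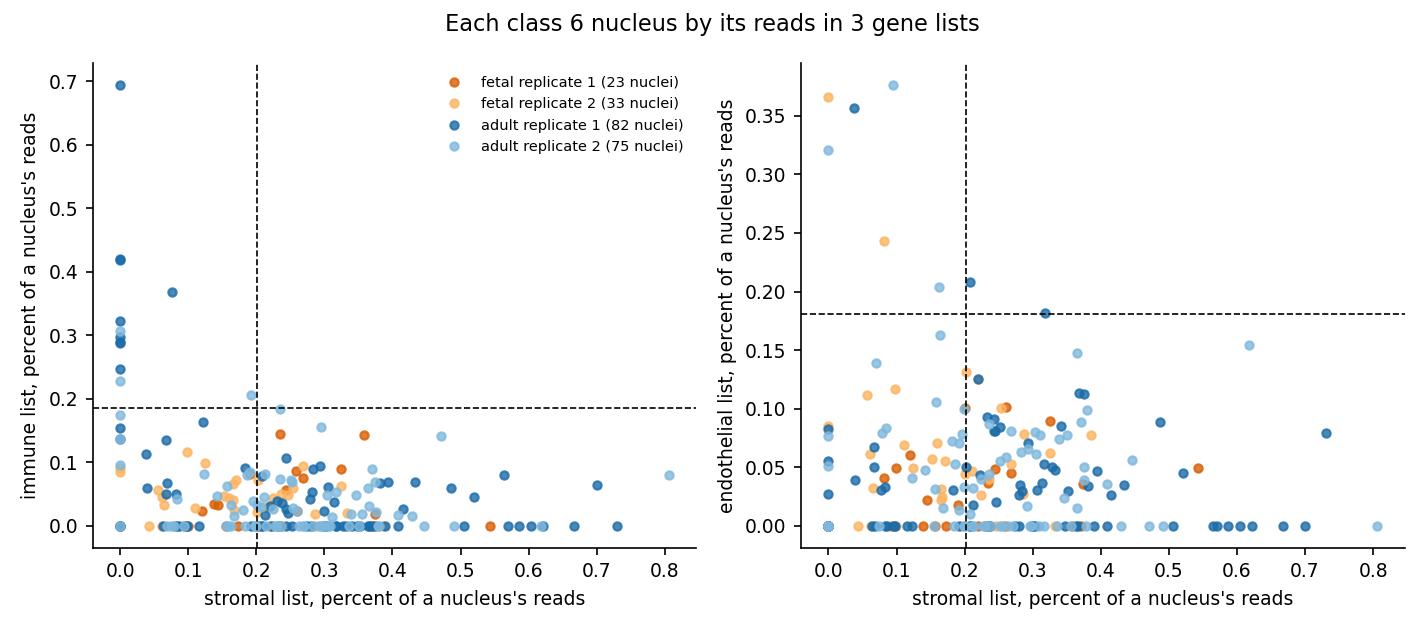
Percent of each nucleus's reads in the stromal list (horizontal axis) against the immune and the endothelial list (vertical axes) for class 6 nuclei, with dashed lines at the 99th percentile of all other nuclei. Of 213 nuclei, 123 pass the stromal line alone, 12 the immune line alone, 6 the endothelial line alone, and 2 both the stromal and the endothelial.

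Motif scores did not choose these groups and give a further description of them. The mean Zeb1 score was -1.91 in the 12 immune-high nuclei, -4.56 in the 125 stromal-high and -3.64 in the 70 that passed no list. Fos, of AP-1, stood at -3.34, 1.08 and -0.43, and Smarcc1 at -3.51 in the immune-high and 1.05 in the stromal-high nuclei. The ETS motif Elf1 scored 2.50 against -0.17, Ctcf 3.08 against 0.28, and Runx1 with Runx3 1.03 against -0.61. The motif of the epithelial factor Ehf was higher too, at 2.47 against 0.29, and that of Elf5 at 2.05 against -0.01. Rel (-0.75 against 0.92) and Batf with Batf3 (-1.05 against 0.85) were lower in the immune-high nuclei. These motifs were picked after their values were seen and do not name a cell type. Scores of single nuclei were pooled over libraries here, 9 of the 12 immune-high nuclei come from 1 library, and no test was made.

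Within class 6, fetal and adult libraries were compared with reads summed per library and tested with edgeR. Of 9813 genes, 7 passed an adjusted p of 0.05 (0.0713%), 5 higher in the fetal libraries and 2 lower, all with adjusted p between 0.045 and 0.049. No gene of the lists was among them. Levels in this comparison are CPM of the reads in the tested gene spans after TMM scaling. Rtl1, an imprinted gene of retroviral origin, stood at 127 and 173 in the fetal and 20.3 and 15.6 in the adult libraries, a log2 change of 3.08 (SE 0.589). Ptprn2, Sema5b, Thbs1 and Nav3 rose in the fetal libraries by 2.45, 2.19, 1.65 and 1.28 (SE 0.440, 0.428, 0.317 and 0.248). Sema5b is a semaphorin that guides axons, and Thbs1 is a matrix glycoprotein related to Thbs2. Lower in the fetal libraries were Adgrd1, an adhesion G protein-coupled receptor (-2.0, SE 0.399), and Irak3, an inhibitor of Toll-like receptor signalling (-2.04, SE 0.410). The stages did not overlap for any of the 7, which choice by this test favours. The share of all 9813 genes without overlap is not given here.

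The calls moved with the libraries. Without adult replicate 1, 6 genes passed and none of the 7, and without fetal replicate 1, fetal replicate 2 or adult replicate 2, 73, 176 and 14 genes passed, with 6, 4 and 4 of the 7. In such fits 1 stage has a single library, which is assumed to vary like the 2 of the other stage. None passed with scaling to total reads or when genes averaging under 20 reads a library were dropped. With the 18 nuclei past the immune or endothelial threshold alone left out, no gene passed in edgeR, and 19 passed in DESeq2 on all 213 nuclei. The stromal marker list had 5 genes tested, none called and a smallest adjusted p of 0.696 in edgeR. The 15 fibroblast genes tested had a smallest adjusted p of 0.219 and the 18 mesenchymal transcription factors 0.525, and DESeq2 called none of either. Of 4676 distal regions, 0 passed in edgeR (0%), with 394 at an unadjusted p under 0.05, and 0 in DESeq2, with 211 unadjusted.

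Motif scores within class 6 differed by stage for 25 of 427 in limma (5.85%), 4 higher and 21 lower in the fetal libraries. Pgr, the progesterone receptor motif, scored -0.70 and -0.44 in the fetal and 0.63 and 1.18 in the adult libraries, a difference of -1.47 (SE 0.193, adjusted p = 0.00109). The related glucocorticoid receptor motif Nr3c1 differed by -1.25, and that of the oestrogen receptor Esr1 by -0.90. The AP-1 motif Fos was lower in the fetal libraries too, by -1.30, with the motif named for the chromatin remodelling subunit Smarcc1 at -1.45 and Bach1 at -1.17. The 4 that were higher were Nfix (0.99), Msc (0.67), Zfp637 (0.65) and Nfya (0.64). With 1 library left out, none passed without fetal replicate 1, fetal replicate 2 or adult replicate 2, and 8 passed without adult replicate 1, again with the spread taken from the other stage alone. With the 18 immune- or endothelial-high nuclei left out, 43 passed, the 25 among them.

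The stage difference of class 6 was then set against that of all other nuclei of the same library. For 85 of 427 motifs (19.9%) the stage differences themselves differed in limma, 51 upward and 34 downward. None of the 85 had overlapping stages, which choice by this test favours, and the share of all 427 without overlap is not given here. All 23 Fox motifs were among the 51, but they are not 23 separate results. Foxj2, Foxk1, Foxk2, Foxo3, Foxp3 and Foxp4 have identical scores, as do Foxc2 with Foxs1 and Foxj3 with Foxn2. The Foxa1 motif, of a luminal pioneer factor, scored -1.05, -1.86, -1.13 and -1.47 in class 6, with overlapping stages, and -1.56, -2.0, 1.01 and 0.87 in the other nuclei. Its stage difference was -0.16 in class 6 and -2.72 elsewhere, a gap of 2.57 (SE 0.174, adjusted p = 5.99e-05). Fos differed by stage in both, by -1.30 in class 6 and -3.38 elsewhere. Sox9, a progenitor factor, differed by 0.36 in class 6 and 1.75 elsewhere. The progesterone and glucocorticoid receptor motifs went the other way, with larger stage differences in class 6, -1.47 against -0.23 for Pgr and -1.25 against -0.21 for Nr3c1. The other nuclei are a mixture of 13 classes whose shares differ between libraries, and the part of those shares in this contrast was not tested.

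**Figure D5:**
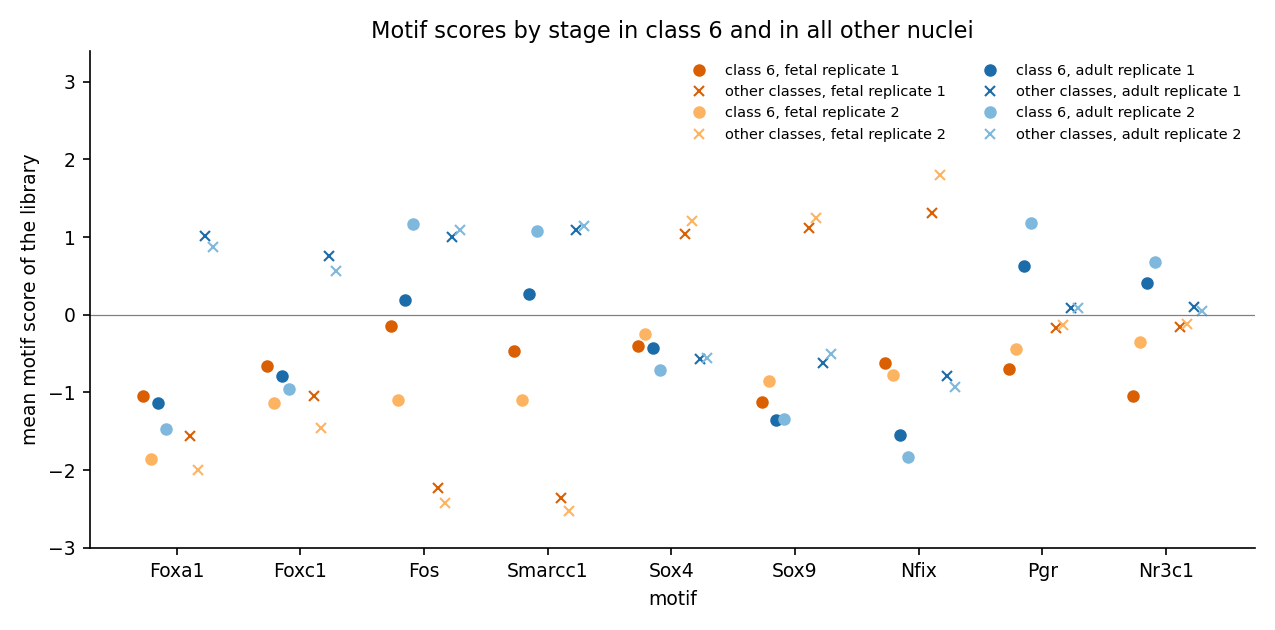
Mean deviation score by library for 9 motifs, fetal and adult libraries, in class 6 and in all other nuclei. Foxa1 and Foxc1 separate the stages in the other nuclei and overlap in class 6, while Pgr and Nr3c1 separate the stages more widely in class 6.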

How the data were processed

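Reads were aligned and processed by the authors with Bowtie2, MACS2 and bedtools on mm10, per the submitters' processing notes. Settings, any shift of cut sites, duplicate removal, the motif collection and chromVAR settings are not given in the sources used here. The deposited read lists were turned into counts of reads per gene span and region. Both ends of a fragment are separate reads, so reads are not independent counts and counting intervals are too narrow. The deposited motif scores and the Cicero score were used as the authors gave them. The deposited gene accessibility score was not used, because its columns name no nucleus.

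Class 6 and all other nuclei were pooled for description. A gene was judged with at least 10 reads expected in class 6 (21887 spans listed). Stage was tested over 2 against 2 libraries with edgeR 4.0.16 (quasi-likelihood, TMM; library means of 10 or more reads for genes, 5 for regions) and limma 3.58.1 on library means, with Benjamini-Hochberg adjustment at 0.05 over all features. DESeq2 1.42.0 was an alternative. Fits ran in R 4.3.3, were tested on simulated data, and other steps used Python 3.11.15. Genes named were the stromal markers, up to 4 highest and the lowest of each list, the 10 highest and 5 lowest genes, 8 highest and 5 lowest motifs, and 8 regions; other named genes and motifs, such as lymphocyte genes, were chosen after their values were seen. Members and lists were chosen with earlier results of these data known. Alternatives changed scaling, filters, pseudocounts, spans, thresholds and libraries.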

Additional observations from a re-analysis of the deposited data

Results flagged for a closer look

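For 10 motifs the fetal minus adult difference in class 6 differed from that in all other nuclei of the same libraries in the limma test. They are the 5 furthest in each direction of the 85 that passed. The gap, class 6 less the other nuclei, was 2.57 for Foxa1, 1.93 for Foxa3 and 1.89 for Foxc1, forkhead motifs whose stage difference in class 6 was -0.16, -0.35 and -0.03 against -2.72, -2.28 and -1.92 elsewhere. It was 2.11 for Smarcc1 and 2.08 for Fos, with stage differences of -1.45 and -1.30 in class 6 against -3.56 and -3.38. It was -1.43 for Sox4, -1.42 for Nfix and -1.39 for Sox9, with 0.25, 0.99 and 0.36 in class 6 against 1.68, 2.42 and 1.75. It was -1.24 for Pgr and -1.04 for Nr3c1, the only 2 of the 10 where the stage difference was larger in class 6. Groups of 2 libraries are too small to look for a single library far from the rest.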

How the results depend on the processing

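Gene calls between class 6 and other nuclei ranged from 437 to 809 for genes higher, and the higher share of all calls was 31.3%, or 24.4% with libraries weighted equally (median of all genes -0.16). Distal regions numbered 296 with a pseudocount of 5, 161 with the minimum of reads doubled, 1310 with it halved, 59 in fetal libraries only, and 355 to 1145 with 1 library left out. At the 95th percentile, 16 nuclei were endothelial-high, 23 immune-high and 1 epithelial-high, and 1 was epithelial-high over gene bodies without flanks. Immune-high nuclei numbered 4 to 12 with 1 library left out. Stage calls for genes were 0 with scaling to total reads, 19 in DESeq2, 0 with a mean of at least 20 reads, 35 with no filter, 0 with the replicate number as a block and 6 to 176 with 1 library left out. For regions they were 1 with a mean of at least 10 reads and 0 to 1 with 1 library left out. For motifs within class 6 they were 13 with medians over nuclei, 35 with the replicate block and 0 to 8 with 1 library left out. The interaction gave 94 motifs with the block. The labels name no pairing of same-numbered libraries. Deviations from the stage mean had a correlation of -0.019 over 9813 genes, the same value for both pairs by construction. Whether same-numbered libraries shared a day or batch was not tested. An alternative chosen after seeing the data left out the 18 nuclei past the immune or endothelial threshold alone, and gave 0 genes and 43 motifs. The cause of these shifts was not tested. For the main results, 82 alternatives were rated as unchanged and 28 as moved. Of the single genes, motifs and nucleus groups, 705 results kept direction and side of the threshold, 35 moved, 81 weakened and 0 reversed. Many of these genes and motifs were named for large differences, which favours keeping a threshold. The fetal side rests on 23 and 33 nuclei.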
